A study of Mus musculus with 12 samples.

Results

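The metallothioneins and zinc transporters examined here are 7 genes: the metallothioneins Mt1 and Mt2, their transcription factor Mtf1, the exporters Slc30a1 and Slc30a10, and the importers Slc39a4 and Slc39a14. They were picked by gene symbol with earlier results of these data known, so the counts of members passing below describe them and are no independent test. All 7 were on the array, with 17 of its 45101 probe sets, and stand among 18194 genes, each read by its brightest probe set. Liver RNA was measured on an Affymetrix mouse array in 4 groups of 3 arrays, and each array carried a pool of RNA from 3 animals (n = 3 pools per group below). The groups were LG2KO mice treated with tamoxifen that were fasted and then refed, control mice fasted and then refed, LG2KO mice treated with tamoxifen that were fasted, and control mice that were fasted. All shared the mixed SV129XC57Bl/6 background, and the labels state neither age nor sex. LG2KO is not spelled out in the labels and is read here as loss from liver of Glut2, the glucose transporter that Slc2a2 encodes. The labels do not name the promoter behind the deletion. Control arrays carry no tamoxifen label, so effects of tamoxifen and of the deletion cannot be told apart. The source description of the fasted LG2KO arrays reads fasted/refed, whereas their titles and diet labels say fasted, which was followed.

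Metallothioneins are small, cysteine-rich proteins that bind zinc and copper in the cytosol. Their genes are switched on by zinc through the factor encoded by Mtf1, which binds metal response elements in their promoters, and also by glucocorticoids and inflammatory cytokines, and fasting is a known inducer of them in rodent liver. Proteins of the Slc30 family carry metal out of the cytosol, and those of the Slc39 family carry it in.

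The promoters of Mt1 and Mt2, the members with the largest refeeding changes, are shown with those of the exporters Slc30a1, a classical zinc-induced gene, and Slc30a10. The windows run from 250 bases before to 50 bases after the annotated start and come from RefSeq on GRCm38.p6, 5′ to 3′. Capitals mark matches on either strand to the core of the metal response element, searched as TGCACNC and TGCGCNC.
Mt1, chr8:94178839-94179138, + strand: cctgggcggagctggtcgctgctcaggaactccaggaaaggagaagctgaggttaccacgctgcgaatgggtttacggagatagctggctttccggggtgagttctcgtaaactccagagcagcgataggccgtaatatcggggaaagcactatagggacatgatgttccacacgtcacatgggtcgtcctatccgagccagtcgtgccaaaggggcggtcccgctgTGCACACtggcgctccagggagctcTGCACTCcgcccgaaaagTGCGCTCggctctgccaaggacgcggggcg
Mt2, chr8:94172368-94172667, + strand: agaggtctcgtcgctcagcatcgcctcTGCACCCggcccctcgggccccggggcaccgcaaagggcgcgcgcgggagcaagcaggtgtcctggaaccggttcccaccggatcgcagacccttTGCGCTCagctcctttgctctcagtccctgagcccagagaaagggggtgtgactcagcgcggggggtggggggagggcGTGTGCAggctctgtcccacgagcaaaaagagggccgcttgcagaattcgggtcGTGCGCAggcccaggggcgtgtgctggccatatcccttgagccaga
Slc30a1, chr1:191906531-191906830, + strand: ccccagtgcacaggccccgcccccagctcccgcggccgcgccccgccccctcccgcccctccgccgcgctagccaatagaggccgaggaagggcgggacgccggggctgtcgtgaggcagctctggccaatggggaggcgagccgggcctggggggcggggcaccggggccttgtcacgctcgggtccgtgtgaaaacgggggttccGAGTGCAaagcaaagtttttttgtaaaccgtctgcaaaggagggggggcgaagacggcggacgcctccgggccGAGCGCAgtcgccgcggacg
Slc30a10, chr1:185454598-185454897, + strand: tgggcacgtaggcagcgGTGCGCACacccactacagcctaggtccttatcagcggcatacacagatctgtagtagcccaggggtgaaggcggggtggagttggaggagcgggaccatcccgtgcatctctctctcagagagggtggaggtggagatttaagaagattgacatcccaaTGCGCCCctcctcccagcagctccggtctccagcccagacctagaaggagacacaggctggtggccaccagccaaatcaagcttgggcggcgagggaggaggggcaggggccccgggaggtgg

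The window of Mt2 held 4 matches, that of Mt1 held 3, that of Slc30a10 held 3, of which 2 overlap on opposite strands, and that of Slc30a1 held 2. The window of Mtf1 held 0. Of all 32851 promoter windows of this length, 25.7% held 1 match or more, 7.11% held 2 or more, 1.97% held 3 or more and 0.517% held 4 or more. In Mt1 the matches lay at -23, 2 and 20 bases from the annotated start, counted with the start as 0, and in Mt2 at -223, -128, -50 and 4. A match is a stretch of letters and not a measured binding site. Sequence outside these windows was not searched, and the positions hold only for the annotated start used here.

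**Figure D1:**
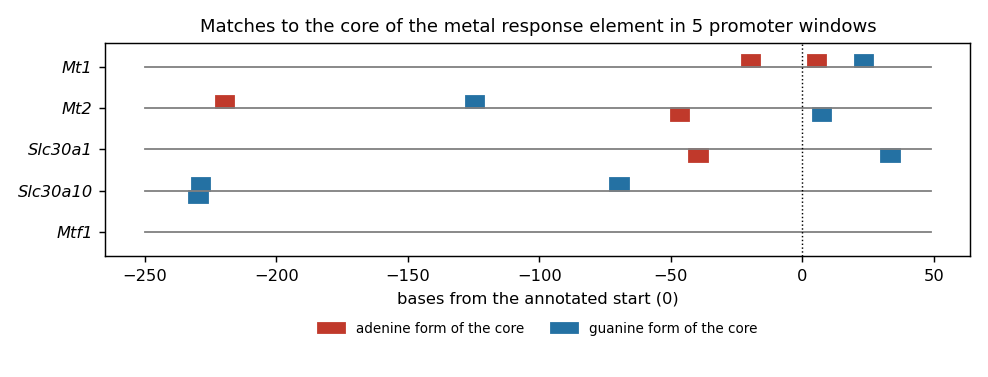
Matches to the core of the metal response element in 5 promoter windows; the horizontal axis gives bases from the annotated start, boxes above a line are matches on the gene's strand and boxes below it on the other strand, and colour gives the form of the core. Mt2 holds 4 matches, Mt1 and Slc30a10 hold 3 each, Slc30a1 holds 2 and Mtf1 holds 0.

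Slc2a2, the gene the knockout targets, was at 3.56 to 4.13 on the log2 scale on the 6 LG2KO arrays. It averaged 3.75 in refed LG2KO and 10.96 in refed control livers, and 3.90 in fasted LG2KO and 10.64 in fasted control livers. Alb, which encodes albumin and defines hepatocytes, lay at or above the 99.95 percentile of all genes on every array. Control refed replicate 1 and fasted LG2KO replicate 3 stood apart on the second principal component, at 37.1 and -31.4 against -11.4 to 7.46 for the others. Transcripts of exocrine pancreas were high on control fasted replicate 3, with the summed level of 14 markers at 11.68 against 9.62 to 10.12 on the other 11 arrays. Values below are RMA levels or differences on the log2 scale. A gene passed where its adjusted p in limma, over all 18194 genes, was below 0.05.

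**Figure D2:**
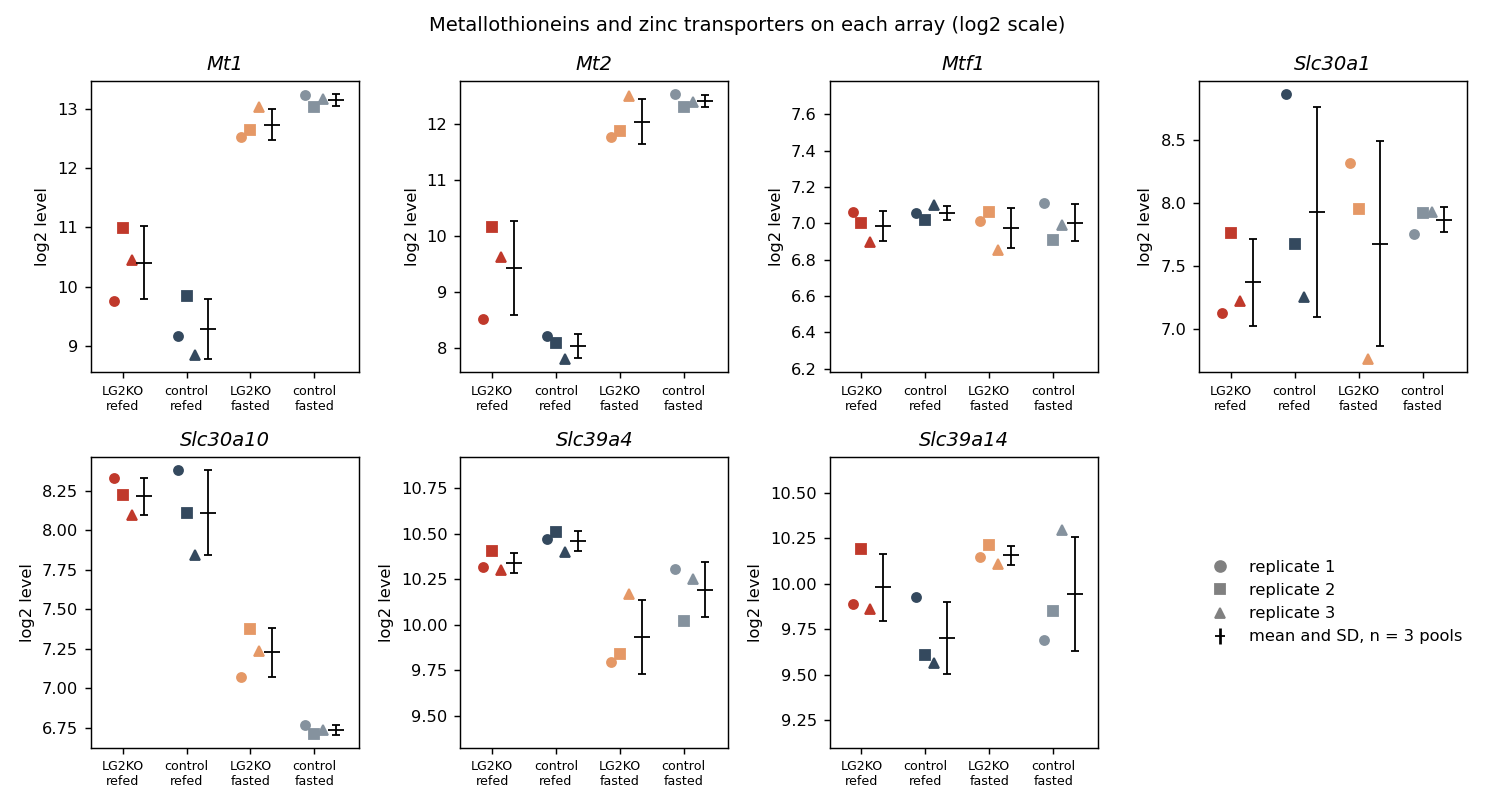
Log2 level of the 7 genes on each array, by group; symbols give the replicate, and the bar beside them gives the mean and SD of 3 pools. Levels of Mt1 and Mt2 on the refed arrays lie below every fasted array, those of Slc30a10 lie above every fasted array, and Mtf1 stays between 6.85 and 7.11.

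Refeeding of LG2KO livers went with a large fall of both metallothioneins and a rise of Slc30a10 and Slc39a4, so that 4 of the 7 members passed. In control livers both metallothioneins fell, Slc30a10 rose, and 3 of the 7 passed. Among all genes 7.05% passed in LG2KO livers (4.66% higher and 2.4% lower) and 6.46% in control livers (3.29% higher and 3.17% lower). These comparisons ask what feeding does with and without the transporter that lets glucose into hepatocytes. Fewer cells of a type and less RNA per cell cannot be told apart in whole liver.

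Mt1, the major inducible metallothionein with Mt2, was at 9.76, 10.99 and 10.46 in refed LG2KO livers, against 12.53, 12.65 and 13.03 in fasted LG2KO livers. It was at 9.17, 9.84 and 8.85 in refed control livers, against 13.23, 13.03 and 13.17 in fasted control livers. The refed and fasted arrays did not overlap in either genotype, as for 22.5% of all genes in LG2KO and 20.5% in control livers. Mt1 fell by 2.33 ± 0.28 (SE) with refeeding in LG2KO livers (5.04-fold, adjusted p = 0.00038). It fell by 3.86 ± 0.28 in control livers (14.5-fold, adjusted p = 7.59e-06). A fasted liver placed Mt1 between the 99.02 and 99.62 percentile of its array, and a refed one between the 90.34 and 96.85 percentile, so the transcript remained well above the middle of the array after feeding.

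Mt2 followed Mt1. Its level was 8.51, 10.17 and 9.62 in refed LG2KO livers, against 11.78, 11.87 and 12.51 in fasted LG2KO livers. In refed control livers it was 8.20, 8.09 and 7.80, against 12.54, 12.32 and 12.39 in fasted control livers. Here too no refed array reached a fasted one. Mt2 fell by 2.62 ± 0.32 in LG2KO livers (6.15-fold, adjusted p = 0.000402) and fell by 4.38 ± 0.32 in control livers (20.9-fold, adjusted p = 7.59e-06). By absolute change in control livers Mt2 ranked 1 and Mt1 ranked 2 of 18194 genes in this fit, and in LG2KO livers they ranked 12 and 16. The falls of Mt1 and Mt2 passed without each of the 12 arrays in turn, in both genotypes.

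Mt1 was read by a further, dimmer probe set. There the difference with refeeding was -1.55 ± 0.56 in LG2KO livers, with an adjusted p of 0.167 over 34958 probe sets, and -2.78 ± 0.56 in control livers, with an adjusted p of 0.0114. The brighter probe set carries the suffix that Affymetrix gives to probes shared by several transcripts, so signal from a near-identical transcript cannot be told apart in it. Across the 12 arrays Mt1 and Mt2 correlated at a Pearson r of 0.99, a value that the shared feeding groups shape.

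Of the 10 measured genes nearest to Mt1 and Mt2 on chromosome 8, 0 passed as lower after refeeding. Among all genes 2.4% passed as lower in LG2KO and 3.17% in control livers, so 0 of 10 is near that share. Mt3, a metallothionein known mainly from brain, was at -0.08 ± 0.15 with refeeding in LG2KO livers and at -0.05 ± 0.15 in control livers. Mt4, known from stratified epithelium, was at 0.07 ± 0.12 and -0.21 ± 0.12. Of the 10 measured genes nearest to the pair, 5 on each side and picked after the falls were known, 0 passed in LG2KO livers in limma. In control livers 1 rose, the nuclear pore gene Nup93, by 0.45 ± 0.11. The changes of the 10 ran between -0.30 and 0.40 in LG2KO livers and between -0.46 and 0.45 in control livers. The lowest in control livers were Bbs2 at -0.46 ± 0.13 (adjusted p = 0.0517) and Nudt21 at -0.36 ± 0.10 (adjusted p = 0.0538), just short of passing in limma.

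Slc30a10, which exports manganese from hepatocytes and is known in human and mouse for that role, moved the other way. It was at 8.33, 8.22 and 8.09 in refed LG2KO livers, against 7.07, 7.38 and 7.24 in fasted LG2KO livers. Refed control livers had 8.38, 8.11 and 7.84, against 6.77, 6.71 and 6.73 in fasted control livers. Every refed array lay above every fasted one. The gene rose by 0.99 ± 0.14 in LG2KO livers (1.99-fold, adjusted p = 0.00102) and by 1.38 ± 0.14 in control livers (2.59-fold, adjusted p = 8.44e-05), and both calls held without each array in turn. Its dimmer probe set rose by 1.19 ± 0.27 in LG2KO livers (adjusted p = 0.0228) and by 2.51 ± 0.27 in control livers (adjusted p = 0.000149).

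Slc39a4, the zinc importer best known from intestine, was at 10.32, 10.40 and 10.30 in refed LG2KO livers, against 9.79, 9.84 and 10.17 in fasted LG2KO livers. Refed control livers had 10.47, 10.51 and 10.40, against 10.31, 10.02 and 10.25 in fasted control livers. No refed array overlapped the fasted arrays of its genotype. The rise was 0.41 ± 0.11 in LG2KO livers (1.32-fold, adjusted p = 0.0399), and the value was 0.27 ± 0.11 in control livers (adjusted p = 0.209). With array weights it passed in control livers too (0.30, adjusted p = 0.0347). The call in LG2KO livers ended without 8 of the 12 arrays left out singly (adjusted p up to 0.171), among them all 3 refed LG2KO arrays, fasted LG2KO replicates 1 and 2, control refed replicates 2 and 3 and control fasted replicate 3. It also ended without the intensity trend (adjusted p = 0.0565), with only the groups compared (adjusted p = 0.0821) and with the replicate number as a block (adjusted p = 0.0556).

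Slc39a14, which brings zinc, manganese and iron into hepatocytes and is induced by interleukin signalling in mouse liver, did not pass. It was at 9.89, 10.19 and 9.86 in refed LG2KO livers, against 10.15, 10.21 and 10.11 in fasted LG2KO livers, and the change was -0.18 ± 0.15. Refed control livers had 9.93, 9.61 and 9.56, against 9.69, 9.85 and 10.29 in fasted control livers, and the change was -0.24 ± 0.15. The highest of these fasted control values was that of replicate 3, the array with pancreas transcripts, and without that array the change was -0.0676 (adjusted p = 0.897). The groups overlapped in both genotypes. The other 3 probe sets of the gene had values above 0 in both genotypes, the largest being 0.48 ± 0.17 in LG2KO livers (adjusted p = 0.166).

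Slc30a1, the exporter of zinc at the cell surface, was read by 2 probe sets that disagree in their spread. On the brighter one refed LG2KO livers had 7.13, 7.76 and 7.23, against 8.32, 7.95 and 6.77 in fasted LG2KO livers. Refed control livers had 8.86, 7.67 and 7.26, against 7.75, 7.92 and 7.93 in fasted control livers. The highest and the lowest of these 12 values belong to the pair of arrays that stand apart. The change was -0.31 ± 0.41 in LG2KO and 0.06 ± 0.41 in control livers. Without that pair the change in LG2KO livers was -0.76 with an adjusted p of 0.0191, and in control livers -0.40 with an adjusted p of 0.231. On the dimmer probe set all arrays lay between 7.42 and 7.85, and the changes were 0.02 ± 0.10 in LG2KO and -0.20 ± 0.10 in control livers.

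Mtf1, which encodes the zinc-sensing factor itself, had levels between 6.85 and 7.11 on its brightest probe set. Its change with refeeding was 0.01 ± 0.11 in LG2KO livers, with a 95% interval of -0.22 to 0.24. In control livers it was 0.05 ± 0.11, with an interval of -0.18 to 0.28. The other 4 probe sets did not pass in any comparison.

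**Figure D3:**
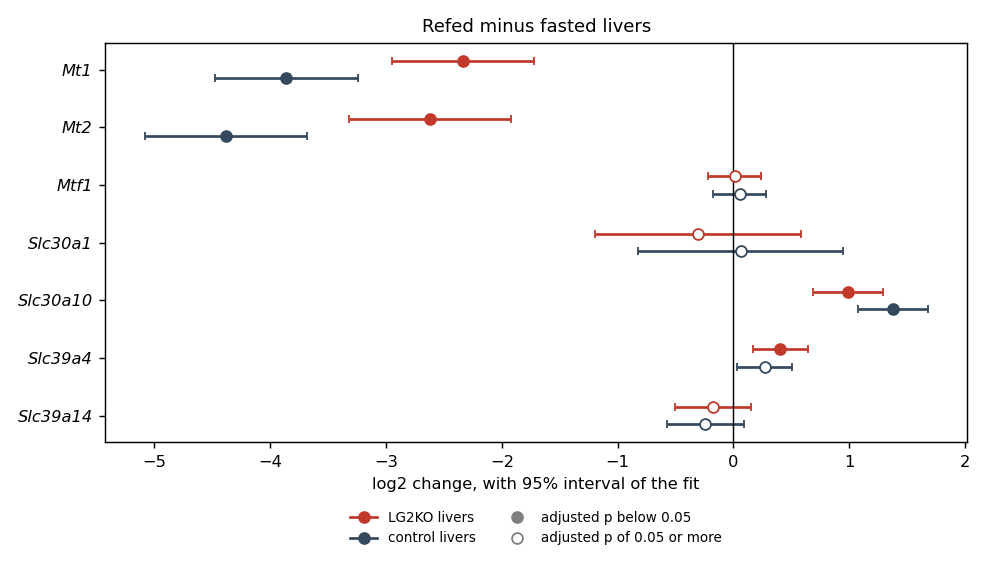
Log2 change, refed minus fasted, of the 7 genes in LG2KO and control livers, with the 95% interval of the fit; filled points have an adjusted p below 0.05. Mt1 and Mt2 lie at -2.33 and -2.62 in LG2KO livers and at -3.86 and -4.38 in control livers, while Slc30a10 lies at 0.99 and 1.38.

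The difference between genotypes asks what the loss of the transporter goes with at a given feeding state. In refed livers both metallothioneins had higher values in LG2KO, yet 0 of the 7 members passed, against 0.379% of all genes (0.291% higher and 0.0879% lower), and 2 had an unadjusted p below 0.05 in limma, against 9.13% of all genes. These were Mt1 at 1.11 ± 0.28 (2.17-fold, adjusted p = 0.159) and Mt2 at 1.40 ± 0.32 (2.63-fold, adjusted p = 0.121). On its dimmer probe set Mt1 was at 1.13 ± 0.56, with an unadjusted p of 0.0641 in limma (adjusted p = 0.643). For Mt2 the refed LG2KO and control arrays did not overlap, as for 15.4% of all genes, and for Mt1 the lowest LG2KO value of 9.76 lay below the highest control value of 9.84. Refed LG2KO replicate 1 lay closest to the controls in both genes. Without it Mt2 was at 1.86 with an adjusted p of 0.0134, and the adjusted p over the other arrays left out singly reached 0.401.

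Other transcripts differed between the same refed arrays. The acute phase gene Lcn2 was at 10.37, 10.77 and 12.17 in refed LG2KO livers, against 8.49, 8.52 and 7.79 in refed control livers. It was also higher in fasted LG2KO livers, at 10.24, 10.40 and 11.06 against 9.70, 8.34 and 10.10 in fasted control livers. The summed level of 12 macrophage markers was 13.61 to 14.09 in refed LG2KO and 13.57 to 13.62 in refed control livers, and 0 of the 12 passed in limma. That of 12 lymphocyte and neutrophil markers was 9.01 to 9.87 in refed LG2KO and 8.88 to 9.09 in refed control livers, and 0 of these passed. Lcn2 and both marker sums were highest on refed LG2KO replicate 3, while Mt1 and Mt2 were highest on replicate 2. The part of these transcripts in the metallothionein values was not tested.

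In fasted livers the metallothioneins had the opposite sign. Mt1 was at -0.41 ± 0.28 and Mt2 at -0.37 ± 0.32 in LG2KO relative to control, and neither passed. Without fasted LG2KO replicate 3, which stands apart, Mt2 was at -0.59 (adjusted p = 0.727), and without fasted LG2KO replicate 1 it was at -0.23 (adjusted p = 0.989). The 3 fasted LG2KO values of Mt1 lay just under the 3 control values, and such a lack of overlap was seen for 10.8% of all genes. Of the 7 members 0 passed in limma, against 0.396% of all genes (0.308% higher and 0.0879% lower), and 2 had an unadjusted p below 0.05, against 5.2% of all genes. These were Slc30a10 and Slc39a4. Slc30a10 was higher on every fasted LG2KO array than on every fasted control array, at 0.49 ± 0.14 (1.4-fold, adjusted p = 0.326), and its dimmer probe set was at 1.18 ± 0.27 (adjusted p = 0.164). With array weights Slc30a10 passed (0.56, adjusted p = 0.0303). Slc39a4 was at -0.26 ± 0.11 (adjusted p = 0.87), with overlapping arrays.

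**Figure D4:**
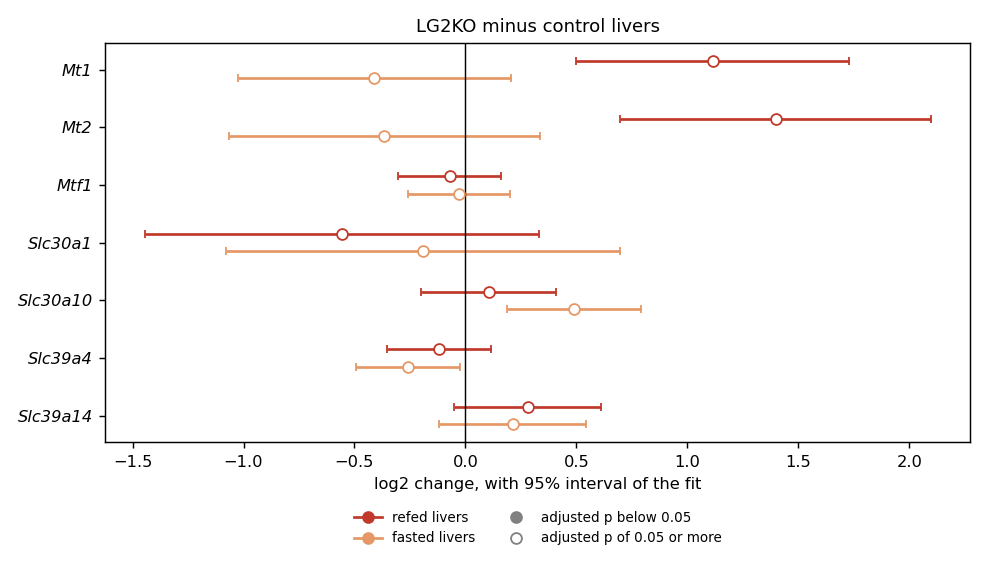
Log2 difference, LG2KO minus control, of the 7 genes in refed and in fasted livers, with the 95% interval of the fit; all points are open because no adjusted p was below 0.05. Mt1 and Mt2 lie at 1.11 and 1.40 in refed and at -0.41 and -0.37 in fasted livers, and Slc30a10 lies at 0.10 and 0.49.

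Whether the refeeding change itself differed between genotypes was tested as an interaction, LG2KO minus control. Mt1 was at 1.53 ± 0.40 (95% interval 0.65 to 2.40, adjusted p = 0.59) and Mt2 at 1.76 ± 0.46 (0.77 to 2.75, adjusted p = 0.574). Of the 7 members 0 passed in limma, against 0.0055% of all genes, which is 1 gene. Mt1 and Mt2 had an unadjusted p below 0.05, as did 4.73% of all genes. The dimmer probe set of Mt1 was at 1.23 ± 0.79, with an unadjusted p of 0.142 in limma (adjusted p = 0.995). A smaller fall of the metallothioneins in LG2KO livers was therefore not called at this number of arrays. Slc30a10 was at -0.39 ± 0.20 (adjusted p = 0.99), and at -1.32 ± 0.38 on its dimmer probe set (adjusted p = 0.894). Averaged over both feeding states, 0 members passed in limma against 1.02% of all genes (0.737% higher and 0.28% lower), and 4 had an unadjusted p below 0.05, against 8.86% of all genes. These were Mt2 at 0.52 ± 0.23, Slc30a10 at 0.30 ± 0.10, Slc39a4 at -0.19 ± 0.08 and Slc39a14 at 0.25 ± 0.11.

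Mt1 averaged 10.4 ± 0.62 (SD, n = 3) in refed LG2KO and 9.29 ± 0.5 in refed control livers, and 12.7 ± 0.27 in fasted LG2KO and 13.1 ± 0.1 in fasted control livers. Mt2 averaged 9.43 ± 0.84 in refed LG2KO and 8.03 ± 0.21 in refed control livers, and 12.05 ± 0.4 in fasted LG2KO and 12.4 ± 0.11 in fasted control livers. The order of the 4 groups was thus the same for both. Of the 3 steps between neighbours in that order, the step between refed and fasted LG2KO livers was the 1 that passed. Slc30a10 averaged 8.22 ± 0.12 in refed LG2KO, 8.11 ± 0.27 in refed control livers, and 7.23 ± 0.15 in fasted LG2KO and 6.74 ± 0.03 in fasted control livers. Its 2 refed groups differed by less than their spread.

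Some other members of the wider families passed. Among all genes 4.66% rose and 2.4% fell with refeeding in LG2KO livers, and 3.29% rose and 3.17% fell in control livers. Of 10 measured Slc30 exporters, Slc30a10 was the 1 that passed with refeeding in either genotype, with family medians of 0.09 in LG2KO and 0.05 in control livers, beside 0.01 and -0.01 for all genes. Without the arrays that stand apart 2 exporters also passed as lower in LG2KO livers, Slc30a1 and Slc30a9, the last at -0.72 with an adjusted p of 0.018. Of 14 Slc39 importers 2 rose in LG2KO livers and 3 rose in control livers, with medians of 0.07 and -0.03. Without the arrays that stand apart Slc39a13 also passed as higher in LG2KO livers (0.36, adjusted p = 0.0236) and Slc39a2 as lower in control livers (-1.07, adjusted p = 0.0431). In that setting 3187 genes passed in LG2KO and 2202 in control livers, against 1283 and 1176 on all arrays. Slc39a7, which releases zinc from the secretory pathway, rose by 0.91 ± 0.09 in LG2KO livers (adjusted p = 5.86e-05) and by 0.65 ± 0.09 in control livers (adjusted p = 0.000587). Slc39a11 rose by 0.53 ± 0.11 in control livers (adjusted p = 0.0154) and was at 0.20 ± 0.11 in LG2KO livers. The pancreas-bearing array entered these control values, and its part was not tested.

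Slc39a10, a surface importer that the factor encoded by Mtf1 represses in mouse, was the family member with a genotype call. It was at 3.99, 4.10 and 4.47 in refed LG2KO livers, against 5.65, 5.23 and 4.80 in refed control livers. It fell by 1.04 ± 0.20 in refed LG2KO relative to control livers (adjusted p = 0.0477), and without the pair of arrays that stand apart it was at -0.83 with an adjusted p of 0.071. With refeeding it rose by 1.6 ± 0.2 in control livers (adjusted p = 0.000365) and was at 0.33 ± 0.20 in LG2KO livers. Fasted arrays had 4.01, 3.92 and 3.65 in LG2KO and 3.68, 3.75 and 3.45 in control livers. These are low levels, at which the size of a change is uncertain.

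**Figure D5:**
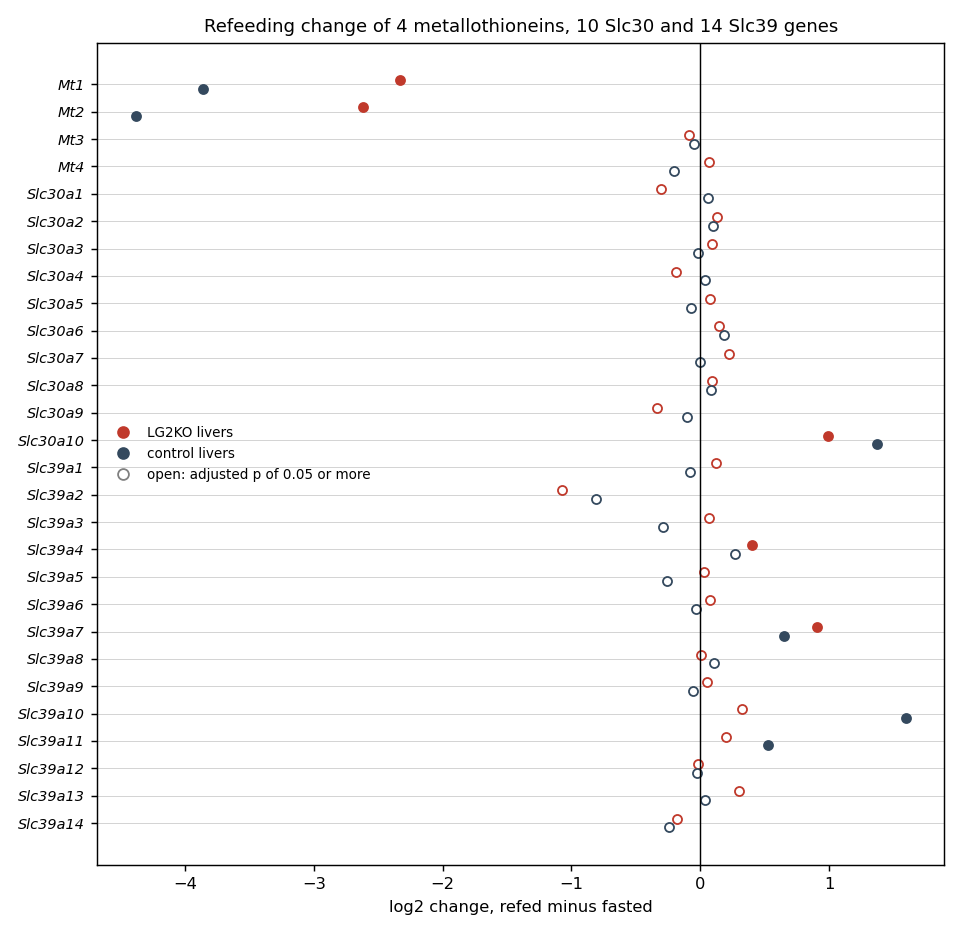
Log2 change, refed minus fasted, of 4 metallothioneins, 10 Slc30 and 14 Slc39 genes in LG2KO and control livers; filled points have an adjusted p below 0.05. Mt1 and Mt2 lie far to the left of all others, and Slc30a10, Slc39a7 and, in control livers, Slc39a10 lie to the right.

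Lists of genes linked to the known inducers of metallothioneins were counted in the same comparisons. Among all genes 4.66% passed as higher and 2.4% as lower with refeeding in LG2KO livers, and 3.29% and 3.17% in control livers. Without the arrays that stand apart, genes passing went from 1283 to 3187 in LG2KO and from 1176 to 2202 in control livers. Of 8 genes linked to Mtf1 in mouse liver, Mt1 and Mt2 fell in both genotypes and Slc39a10 rose in control livers. The other 5 did not pass, and the medians of the 8 were 0.06 in LG2KO and -0.03 in control livers. Without the arrays that stand apart Slc30a1 also passed as lower in LG2KO livers (-0.76, adjusted p = 0.0191). In control livers Gclc also passed as higher in that setting (0.33, adjusted p = 0.0362). Of 14 glucocorticoid-responsive genes 6 fell with refeeding in LG2KO and 8 fell in control livers, with medians of -0.64 and -0.86. The other 8 in LG2KO and 6 in control livers did not pass, and 0 rose. Without the arrays that stand apart 8 and 9 fell, in a setting that also raised the count over all genes. Tsc22d3, also on the list, averaged 10.58 in refed and 10.69 in fasted LG2KO livers. In control livers it averaged 10.63 and 10.56. Fkbp5, which encodes a co-chaperone of the glucocorticoid receptor, fell by 1.45 ± 0.22 in LG2KO livers and fell by 2.14 ± 0.22 in control livers. Lpin1, a phosphatidate phosphatase, fell by 2.15 ± 0.18 and fell by 1.53 ± 0.18, Zbtb16 fell by 1.37 ± 0.24 and fell by 0.94 ± 0.24, and Klf9 fell by 1.2 ± 0.27 and fell by 1 ± 0.27. Errfi1, an inhibitor of the epidermal growth factor receptor, fell by 0.44 ± 0.07 and fell by 0.28 ± 0.07. Pck1, of glucose production, fell by 0.58 ± 0.16 and fell by 0.72 ± 0.16. In refed livers 1 of the 14 was higher in LG2KO than in control, the cell cycle inhibitor gene Cdkn1a by 1.59 ± 0.27 (adjusted p = 0.0369), and without the arrays that stand apart its value was 1.5 (adjusted p = 0.0799). Fkbp5, in that setting, passed as higher (0.74, adjusted p = 0.0499), against 0.43 on all arrays (adjusted p = 0.597).

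Of 24 acute phase genes 1 fell with refeeding in LG2KO and 4 fell in control livers, with medians of 0.14 and -0.21. Cebpd, a transcription factor of that response, fell by 0.87 ± 0.24 in LG2KO and fell by 1.39 ± 0.24 in control livers. In refed livers 2 of the 24 were higher in LG2KO than in control, Lcn2 by 2.84 ± 0.48 and Lbp by 0.57 ± 0.08, and the median was 0.36 against 0.02 for all genes. Without the arrays that stand apart, where calls over all genes rose to 2202 with refeeding in control livers, 7 passed as lower there. The additions were the fibrinogen genes Fga, Fgb and Fgg, and Lcn2 was at 2.95 in the refed genotype comparison with an adjusted p of 0.0542. Of 12 oxidative stress genes 1 rose and 1 fell with refeeding in LG2KO livers, and 3 rose and 1 fell in control livers, or 5 and 1 without the arrays that stand apart, which added Gclc and Gsr. Gstm3 rose by 1.06 ± 0.29 and by 1.97 ± 0.29, and Gsta2 fell by 0.60 ± 0.11 and fell by 0.50 ± 0.11. Of 21 genes of copper, iron and manganese handling the metal importer Slc11a2 rose by 1.05 ± 0.13 in LG2KO and by 0.47 ± 0.13 in control livers, and the transferrin receptor gene Tfr2 fell by 0.36 ± 0.06 in control livers. Without the arrays that stand apart Slc40a1, the iron exporter ferroportin, was at -0.79 in LG2KO livers (adjusted p = 0.000485) and at -0.85 in control livers (adjusted p = 0.000288), against -0.52 and -0.37 on all arrays, where it did not pass. Slc31a1 then also passed as lower in LG2KO livers (-0.39, adjusted p = 0.0381). Commd1 passed as higher in control livers (0.41, adjusted p = 0.00993), in a setting that also raised the count over all genes.

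The genes whose levels over the 12 arrays were most like those of the members were found among 8817 genes above the median level. For Mt1 they were the cytochrome gene Cyp2d22, the proline dehydrogenase gene Prodh and Gde1, at a Pearson r of 0.98, 0.98 and 0.97. For Mt2 they were Cyp2d22, Wbp1l and Klf1, at 0.98, 0.97 and 0.96. All 5 fell with refeeding in both genotypes, in LG2KO livers by between 0.40 for Gde1 and 1.05 for Klf1 on the log2 scale, far less than the metallothioneins. For Slc30a10 they were Tsc22d1, the lipogenesis gene Mid1ip1 and the protein disulfide isomerase gene Pdia6, at 0.98, 0.98 and 0.97. For Slc39a4 they were Prdm11, Senp3 and Maged1, at 0.91, 0.91 and 0.89, and for Slc39a14 they were Cd302, Rapgef3 and Dcbld1, at 0.82, 0.82 and 0.81. For Mtf1 they were Sike1, Proser2 and Cyp20a1, at 0.94, 0.85 and 0.84, and for Slc30a1 they were Tent4b, Adss and Cdv3, each at 0.98. The arrays share 4 groups and, for Slc30a1, the pair that stands apart, so these values describe likeness over 12 arrays and carry no test.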

How the data were processed

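Liver RNA was hybridised as biotin-labelled cRNA, per the labels' protocols. The deposited log2 values were made by the authors with RMA, per the submitters' processing notes, with version and genome build not given in the sources used here. Of 45101 probe sets, 34958 had 1 gene symbol in the platform annotation, 932 had several and 9211 were not listed, and those last 2 kinds were left out. Each of 18194 symbols took the probe set with the highest mean. Tests used limma 3.58.1, run under R 4.3.3 (lmFit, eBayes with an intensity trend, 8 residual degrees of freedom, all 12 arrays), two-sided, with Benjamini-Hochberg adjustment over all genes. Each p-value sets a difference of group means against how far pools vary within groups, and precision is limited by the number of arrays. The fit was tested on simulated data. Figures used matplotlib 3.10.9 in Python 3.11.15.

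The 7 members and all lists were chosen with earlier results of these data known. Named genes include the members, up to 6 passing genes per list and the 3 genes most like each member. Alternatives covered the prior, array weights, a filter on dim genes, probe set choice, the arrays fitted and the replicate block.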

Additional observations from a re-analysis of the deposited data

How the results depend on the processing

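The falls of Mt1 and Mt2 and the rise of Slc30a10 with refeeding passed under each alternative run in both genotypes. None of these alternatives read Mt1 by its dimmer probe set alone, which did not pass in limma in LG2KO livers (-1.55 ± 0.56, adjusted p = 0.167). Of 868 recomputed log2 changes of members, 823 kept their sign and their side of the threshold. Members passing went from 0 to 1 with array weights in fasted livers and in the average over feeding states, Slc30a10 in both. Leaving out 1 array gave 0 to 1 members in the refed genotype comparison and in the average. The causes were not tested.

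Counts over all genes with array weights were 180 (refed genotype comparison, against 69), 203 (fasted, against 72), 3578 (refeeding in LG2KO, against 1283), 2454 (refeeding in control, against 1176), 20 (interaction, against 1) and 443 (average, against 185). Without the arrays that stand apart refeeding gave 3187 in LG2KO and 2202 in control livers. Only the groups compared gave 15 (refed), 44 (fasted) and 695 (refeeding in control), a fit with fewer arrays. Without the intensity trend there were 41 (refed) and 122 (average), and with robust estimation 43 (refed) and 2 (interaction). With 1 row per probe set the interaction gave 3. Leaving out 1 array gave 8 to 47 (refed), 30 to 97 (fasted), 697 to 1803 (refeeding in LG2KO), 706 to 1467 (refeeding in control), 1 to 2 (interaction) and 88 to 207 (average).

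Signs turned for members that did not pass. With array weights Mtf1 was at 0.0432 and Slc30a1 at 0.088 in the fasted genotype comparison, Mtf1 at -0.042 with refeeding in LG2KO and Slc30a1 at -0.25 with refeeding in control livers. Without the arrays that stand apart the same 4 values were 0.0311, 0.27, -0.0489 and -0.40, and Slc30a1 averaged over feeding was at 0.0864. With the mean of a gene's probe sets Slc30a10 was at -0.016 in the refed genotype comparison, Slc39a14 at 0.15 and 0.0079 with refeeding in LG2KO and control livers, and Slc30a1 at -0.0695 in control livers. Leaving out 1 array gave -0.0301 to 0.24 for Slc30a10 (refed genotype), -0.0764 to 0.0311 for Mtf1 and -0.51 to 0.27 for Slc30a1 (fasted genotype). With refeeding in LG2KO livers it gave -0.0489 to 0.0574 for Mtf1 and -0.76 to 0.0119 for Slc30a1, and in control livers -0.40 to 0.40 for Slc30a1. In the interaction it gave -0.82 to 0.10 for Slc30a1, -0.11 to 0.20 for Slc39a14 and -0.10 to 0.0046 for Mtf1.

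The replicate numbers in the titles gave no pairing that held across all groups. Of 18 same-numbered pairs of arrays 5 had deviations from their group means correlated above 0.1, within a range of -0.42 to 0.71. The highest were control refed with fasted LG2KO, at 0.71 for replicate 1 and 0.71 for replicate 3. Each of these pairs holds an array that stands apart. Those arrays, control refed replicate 1 and fasted LG2KO replicate 3, correlated with each other at -0.75. Of the 12 arrays 0 correlated best with their own number throughout. With 3 arrays per group this check cannot exclude a shared batch. With the replicate block the interaction count was 6, and the Slc39a4 rise in LG2KO livers was the member call lost.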
